A study of Homo sapiens with 18 samples.

Results

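The genes described here encode the receptors for glutamate and for gamma-aminobutyric acid (GABA). They were selected by symbol among the protein-coding genes of GENCODE release 44 (hg38) on chromosomes 1 to 22, as the GRIA, GRIK, GRIN, GRID and GRM genes for glutamate and the GABR and GABBR genes for GABA. The rule gave 43 genes of 19111, comprising 25 glutamate receptor genes (3 AMPA, 5 kainate, 7 NMDA, 2 delta and 8 metabotropic) and 18 GABA receptor genes (16 GABA-A and 2 GABA-B). For each gene, the peaks that shared at least 1 bp with the gene body or the 10 kb on either side of it (the gene window) were collected. A peak counted as a promoter peak if its summit was no more than 1 kb from the annotated gene start, and an intragenic peak had its summit elsewhere in the gene body.

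Glutamate is the main excitatory and GABA the main inhibitory transmitter of the brain, and both act through ligand-gated ion channels (the AMPA, kainate and NMDA receptors for glutamate, the GABA-A receptors for GABA) and through receptors coupled to G proteins (the metabotropic glutamate and GABA-B receptors). Each channel is assembled from several subunits, so that a neuron chooses its receptor by the subunit genes it uses. Most of these genes are long, and in cells outside the nervous system many neuronal genes are held silent, in part by the repressor REST, which binds the RE1 element and recruits histone deacetylases.

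The data were ChIP-seq peak lists from HEK293T cells, a transformed human line of embryonic kidney origin, made with antibodies against H3K27ac, an acetylated histone lysine found at active promoters and enhancers, and against CTCF, a DNA-binding protein at which chromatin loops are anchored. Cells were either untreated (CTRL) or exposed to valproic acid (VPA), which inhibits histone deacetylases, at 1 mM for 1 day. Each of the 4 combinations of antibody and treatment had 3 replicates, so that 12 libraries were compared, and all were from formaldehyde-fixed, sonicated chromatin of this one line. Library by library, values are given in the order CTRL 1, 2, 3 and VPA 1, 2, 3.

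In the order just given, the numbers of peaks per list were 26299, 29583, 29799, 38441, 40992 and 40817 for H3K27ac, and 39818, 58782, 56576, 36469, 53458 and 55325 for CTCF. The shortest list of every group was that of replicate 1. Of 8 genes that HEK293 cells are known to use, NEFM, VIM, KRT8, KRT18 and CDH2 had promoter H3K27ac in 6 of 6 libraries and NEFL in 4, whereas LIN28B and PAX2 had it in 6 libraries only when every annotated transcript start was considered. Of 6 genes of blood, liver, pancreas and astrocytes, PTPRC, CD3E, HBB, ALB and INS had none, and GFAP had none at its gene start and 2 libraries with a peak at another transcript start. A peak in cultured cells cannot tell apart a mark in more of the cells and more of the mark per cell.

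Several of the regions described below hold a CTCF site, and the sites shown here are the ones over which H3K27ac peaks were found at GRIK5 and GABRR3, together with those at the GRIK4 and GRIN3A promoters. The core searched for was CCANNAG followed at once by NNGGC, with no mismatch, on either strand and within 100 bp of the summit of a CTCF region. The capitals mark the core in the hg38 genome, with 25 bases on either side.
GRIK5, 35.2 kb into the gene (chr19:42034883-42034944, minus strand): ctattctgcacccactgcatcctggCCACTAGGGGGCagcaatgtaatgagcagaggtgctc
GRIK5, 41.8 kb into the gene (chr19:42028381-42028442, plus strand): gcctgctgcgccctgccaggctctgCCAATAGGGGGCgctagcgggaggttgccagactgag
GABRR3, 4.24 kb upstream (chr3:98039465-98039526, plus strand): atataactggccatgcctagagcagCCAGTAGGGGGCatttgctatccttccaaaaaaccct
GRIK4, promoter (chr11:120511209-120511270, plus strand): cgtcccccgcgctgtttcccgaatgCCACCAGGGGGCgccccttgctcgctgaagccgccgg
GRIN3A, promoter (chr9:101738731-101738792, minus strand): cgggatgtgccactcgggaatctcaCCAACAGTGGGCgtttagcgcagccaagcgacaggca
Such a core was found in 28 of 107 CTCF regions of the receptor genes present in all 6 libraries (26.2%), against 26.2% of the 27794 such regions genome-wide. In regions with a peak in fewer libraries the shares were 19 of 146 (13.0%) and 11.0%.

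The RE1 element was searched for as TTCAGCACC, 2 free bases and GGACAGC, with up to 3 mismatches in all and on either strand. It was found in 2 of 253 CTCF regions of the receptor genes (0.791%, against 1.51% of all CTCF regions) and in 0 of 80 H3K27ac regions (against 2.40% of all H3K27ac regions). Both sites had 1 mismatch and lay in introns, 13.6 kb into GRIK3, a kainate receptor subunit, and 145.4 kb into GRM8, a metabotropic receptor. The capitals mark the element.
GRIK3, intron (chr1:37020838-37020905, minus strand): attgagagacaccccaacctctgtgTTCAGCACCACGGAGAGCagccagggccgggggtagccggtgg
GRM8, intron (chr7:127107896-127107963, minus strand): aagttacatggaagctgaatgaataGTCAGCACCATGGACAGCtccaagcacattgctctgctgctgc
The CTCF region around the GRIK3 site had a peak in 5 libraries and that around the GRM8 site in 6. A match describes the letters only and does not show that a factor was bound.

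To show how different the promoters of the group are, 2 promoters are printed from RefSeq (GRCh38.p14, 250 bases before to 50 after the start), with each CpG in capitals. GRIK4 encodes a high-affinity kainate receptor subunit that needs a partner subunit to form a channel, and its promoter carried H3K27ac in all 6 libraries. GABRR3 encodes a rho subunit, a class of GABA receptor subunit known from the retina, and its promoter carried H3K27ac in none.
GRIK4 (chr11:120511498-120511797, plus strand): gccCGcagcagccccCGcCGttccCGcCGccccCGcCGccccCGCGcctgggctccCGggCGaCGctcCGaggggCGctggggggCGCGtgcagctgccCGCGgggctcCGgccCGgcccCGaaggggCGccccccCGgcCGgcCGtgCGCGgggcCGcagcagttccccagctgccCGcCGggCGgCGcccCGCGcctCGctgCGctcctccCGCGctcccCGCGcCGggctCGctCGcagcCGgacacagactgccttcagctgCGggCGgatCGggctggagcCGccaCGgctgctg
GABRR3 (chr3:98035266-98035565, minus strand): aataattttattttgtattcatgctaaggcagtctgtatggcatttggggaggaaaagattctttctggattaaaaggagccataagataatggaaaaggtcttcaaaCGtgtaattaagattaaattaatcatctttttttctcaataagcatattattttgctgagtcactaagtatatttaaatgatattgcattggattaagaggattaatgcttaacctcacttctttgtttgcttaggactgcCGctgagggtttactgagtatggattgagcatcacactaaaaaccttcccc
The GRIK4 window had 49 CpGs and a GC content of 84.3%, the GABRR3 window 2 CpGs and 33.3%. RefSeq promoters were found for 32 of the 43 genes. Their median GC content was 63.8%, close to the 63.0% of 14616 autosomal protein-coding promoters, and their median number of CpGs was 14.5 against 22. The RefSeq start can lie far from the gene start used for the peaks, so these windows were not set against promoter H3K27ac over the group. The CTCF core was in 1 of the 32 (GRIN3A, 3.13%, against 2.74% of all promoters), and RE1 in 0 (against 0.609%).

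The first question was which receptor genes carried H3K27ac in HEK293T cells at all. Of the 43 genes, 22 had an H3K27ac peak in the gene window in at least 1 library (51.2%), whereas 83.9% of all protein-coding genes did. At the promoter the difference was larger, with 13 genes in any library (30.2%, against 63.3% of all genes) and only GRID1 and GRIK4 in all 6 libraries (4.65%, against 51.4%). Intragenic H3K27ac was found in 17 genes (39.5%, against 54.7%), although the receptor genes are long, with a median length of 183 kb against 27.9 kb. The 35 auxiliary subunits, scaffolds and anchors of the same receptors (such as the CACNG, SHANK, DLG and HOMER genes) stood closer to the average gene, with promoter H3K27ac in 26 (74.3%) in any library and in 15 (42.9%) in all 6. When every annotated transcript start was used, 17 receptor genes had a promoter peak in any library, and with a distance of 2 kb, 16. These alternatives are given for any library only. Regions in all 6 libraries also lay near the RefSeq starts of GABBR1 and GRIK2, away from the gene start used here. These shares are descriptions, and no test was made over the group.

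**Figure D1:**
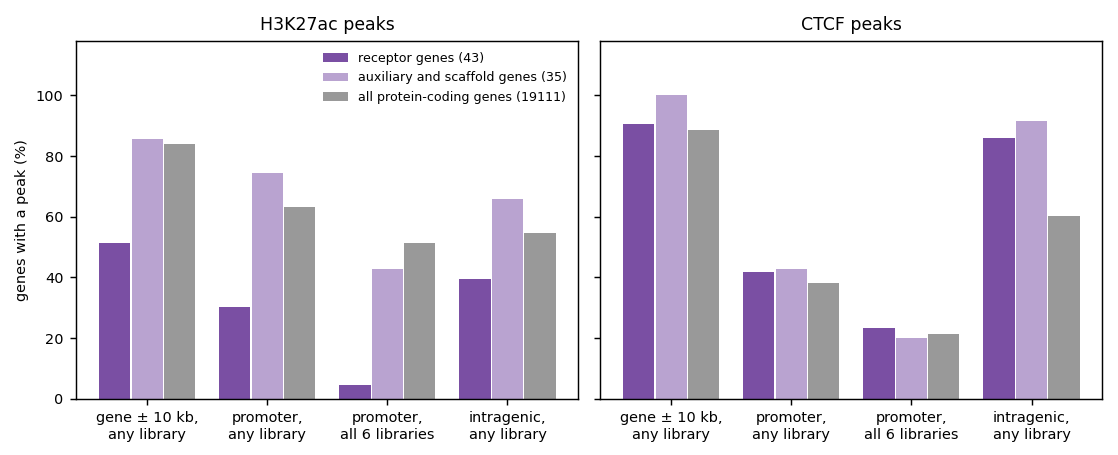
Share of genes (%, from 0) with a peak in the gene window, at the promoter in any library, at the promoter in all 6 libraries, and inside the gene, for H3K27ac (left) and CTCF (right). Dark bars are the 43 receptor genes, light bars the 35 auxiliary and scaffold genes and grey bars all 19111 genes. For H3K27ac the receptor genes are lowest in each class (4.65% at the promoter in all 6 libraries, against 51.4% of all genes), and for CTCF inside the gene they stand at 86.0% against 60.3%.

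The 21 genes without any H3K27ac peak in the window included 12 of the 16 GABA-A subunit genes. Among these were the alpha subunit genes GABRA2, GABRA4, GABRA5 and GABRA6, the beta subunit genes GABRB1 and GABRB2, the gamma subunit genes GABRG1 and GABRG3, and GABRP, which encodes the pi subunit known from tissues outside the brain. The glutamate receptor genes included the AMPA subunit gene GRIA1, the kainate subunit gene GRIK1, the NMDA subunit genes GRIN2A, GRIN2B and GRIN3A, and the metabotropic receptor genes GRM2, GRM6 and GRM7. Of the 21, 17 had a CTCF peak in the window, and 4, among them GABRG1 and GRM6, had neither mark. The common GABA-A receptor combines alpha, beta and gamma subunits, and none of the alpha, beta and gamma subunit genes just named had an acetylated region within 10 kb in any library of either treatment.

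**Figure D2:**
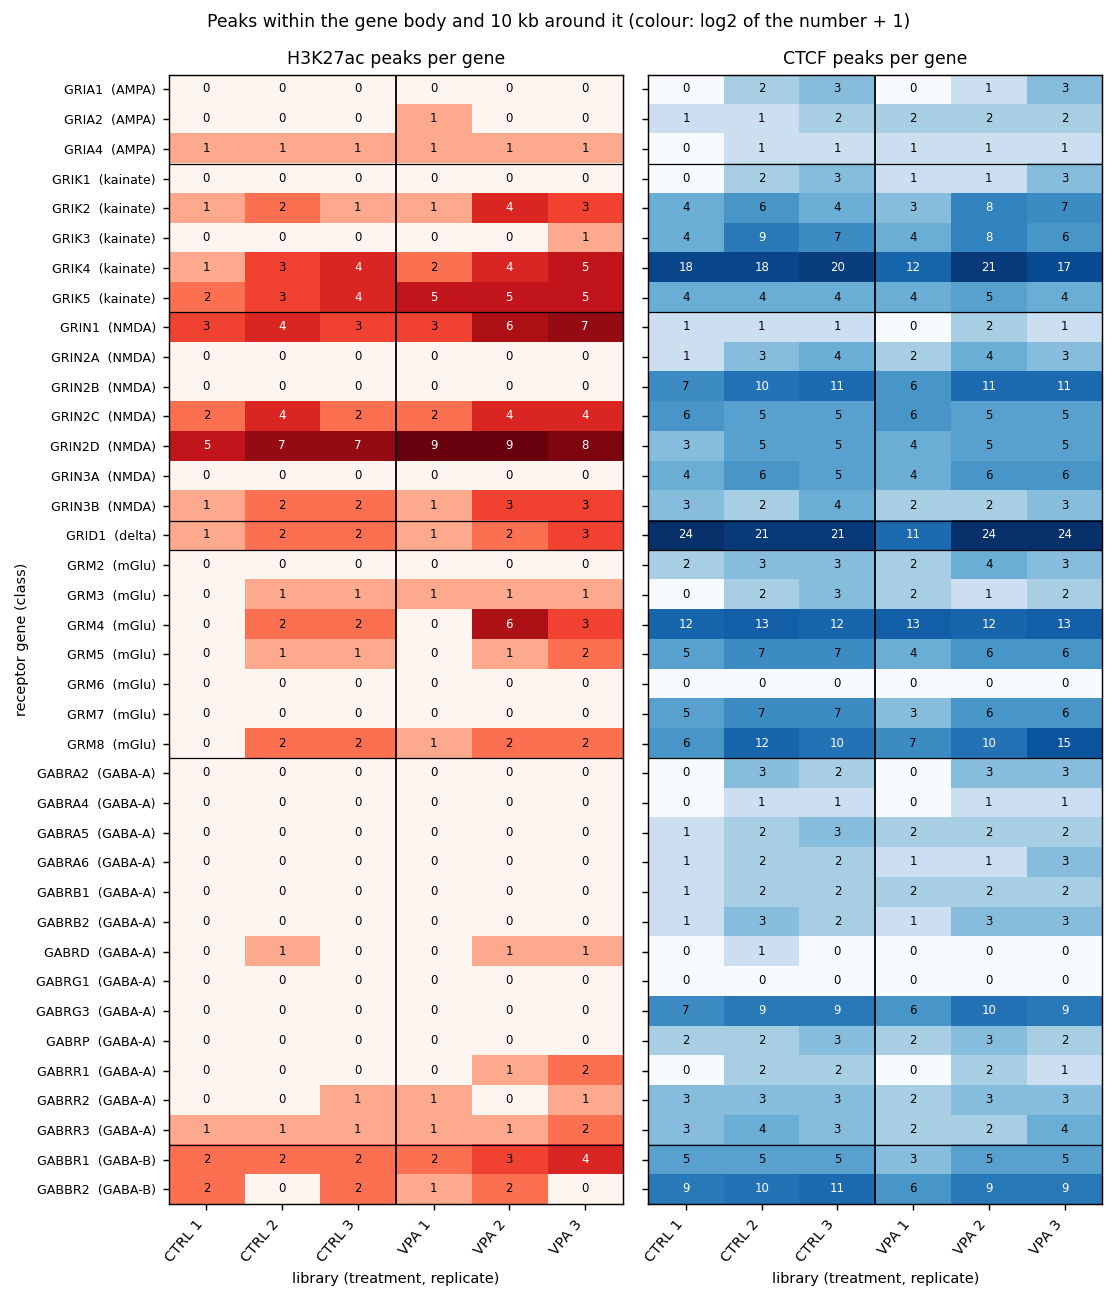
Number of H3K27ac peaks (left) and CTCF peaks (right) in the gene window of 38 of the 43 receptor genes, in 6 libraries per antibody (columns, CTRL left of the line and VPA right of it). Numbers are peaks, and the colour is the log2 of the number plus 1. H3K27ac is concentrated in the GRIN2D, GRIN1, GRIK5 and GRIK4 rows, while CTCF peaks are found in all but 2 rows, with the most at GRID1 and GRIK4.

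The second question was whether VPA changed the number of H3K27ac peaks at these genes. Their windows together had 25, 42 and 44 peaks without treatment and 39, 62 and 63 after VPA (37.0 ± 10.4 and 54.7 ± 13.6, SD, n = 3), a ratio of 1.48. VPA was higher within each replicate number, but replicate 1 under VPA was below replicates 2 and 3 of CTRL, so the groups overlapped. The lists themselves were longer in VPA, and per 1000 peaks of the list the values were 0.951, 1.42 and 1.48 in CTRL and 1.01, 1.51 and 1.54 in VPA. Intragenic peaks numbered 15, 25 and 27 in CTRL and 28, 37 and 41 in VPA (22.3 ± 6.43 and 35.3 ± 6.66), and promoter peaks 2, 7 and 7 in CTRL and 3, 12 and 10 in VPA. The intragenic totals of the treatments did not overlap, while the promoter totals did. Per 1000 peaks of the list the intragenic values were 0.570, 0.845 and 0.906 in CTRL and 0.728, 0.903 and 1.00 in VPA, which overlap.

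By class, most of these peaks belonged to glutamate receptor genes, with 20, 38 and 38 of them without treatment and 34, 54 and 53 after VPA, against 5, 4 and 6 and then 5, 8 and 10 for the GABA receptor genes. The AMPA genes had 1 peak in every library but VPA 1, which had 2. The kainate genes had 4, 8 and 9 peaks without treatment and 8, 13 and 14 after it, and the NMDA genes 11, 17 and 14, then 15, 22 and 22. Inside the NMDA genes the groups did not overlap, with 7, 9 and 7 peaks without treatment and 11, 12 and 12 after VPA. These counts were not scaled to the length of the lists, which were longer in VPA, and no share over all genes was made for a class. They include the GRIN2D peaks split in replicate 1 that are described below. The metabotropic glutamate genes had none in CTRL 1, 6 each in CTRL 2 and CTRL 3, and 2, 10 and 8 in VPA. Of the 22 genes with a peak, 20 had a higher mean in VPA, 1 (GABBR2) a lower one and 1 (GRIA4) the same.

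Gene by gene, the number of peaks in the window was higher in every VPA library than in every CTRL library for 2 genes, GRIK5 and GRIN2D, and lower for 0. Among all genes with a peak, 12.2% were higher in this way and 0.175% lower, so that 2 of 22 is near the background. GRIK5, a high-affinity kainate subunit like GRIK4, had 2, 3 and 4 peaks in the CTRL libraries and 5 in each VPA library. GRIN2D, an NMDA receptor subunit that binds glutamate, had 5, 7 and 7 peaks without treatment and 9, 9 and 8 after VPA. For both the two-sided exact permutation test gave p = 0.1, the smallest it can give with 3 libraries against 3, and the p-value adjusted over all genes was 0.967. The GRIN2D count rested partly on peaks that were split in replicate 1. Peaks of the 6 libraries were also merged into regions, with each region counted once per library. GRIN2D then had 4, 7 and 7 regions in CTRL and 7, 9 and 8 in VPA, which overlap. GRIK5 kept its values, and 13.1% of all genes with a peak were higher.

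Intragenic peaks were higher without overlap in 1 receptor gene, GRIN2D (3, 4 and 4 in CTRL, 7, 6 and 5 in VPA), against 11.5% of all genes with an intragenic peak, and lower in 0, against 0.277%. Leaving out only VPA replicate 1 gave 8 genes in the window (against 23.7%), 4 inside the gene (23.3%) and 2 at the promoter (1.58%). Each share in this paragraph is over the genes with a peak of that class in the libraries used. At promoters 0 receptor genes were higher and 0 lower, against 0.38% and 0.198%. Within each replicate number, GRIK4, GRIK5 and GRIN2D were higher in VPA, both in the window (19.3% of all genes with a peak) and inside the gene (17.7%). Replicate 1 of both treatments was then left out, a choice made after seeing the data. The windows of 8 receptor genes were higher without overlap, against 27.3% of all genes with a peak. These were GRIK5 and GRIN2D with GRIK2 (2 and 1 in CTRL, 4 and 3 in VPA), GRIN1 (4 and 3, then 6 and 7), GRIN3B (2 and 2, then 3 and 3), GRM4 (2 and 2, then 6 and 3), GABBR1 (2 and 2, then 3 and 4) and GABRR1 (0 and 0, then 1 and 2). Inside the gene this held for 4 genes (GRIK2, GRIN1, GRIN2D and GRM4, against 28% of all genes with a peak there). At the promoter it held for 2 (GRIN1 and GABRR1, against 1.8%). Of the 35 auxiliary and scaffold genes, GRIP1, GSG1L and DLG4 were higher in VPA without overlap in the window and inside the gene, with 0 at the promoter and 0 lower in any class.

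The promoters with H3K27ac are described by receptor class, with the fold enrichment of the summit over the local background as the authors' peak caller gave it. Among the kainate genes, the GRIK4 region (chr11:120511017-120512407, summit 0.26 kb upstream) had folds of 7.23, 20.9 and 22.3 in CTRL and 5.67, 15.7 and 12.5 in VPA. At GRIK5 a promoter peak was called only in VPA 2 (2.23) and at GRIK3 only in VPA 3 (2.51). At the annotated gene start, GRIK4 was thus the only kainate gene acetylated in every library. Its values were lower in VPA within each replicate number. The RefSeq start of GRIK2 lies 431007 bp into the gene, and a GRIK2 region 431.2 kb into it had a peak in every library.

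Among the NMDA genes, GRIN1, the obligatory glycine-binding subunit, had a promoter peak only in VPA 2 (3.54) and VPA 3 (3.99). GRIN2D had weak peaks in replicates 2 and 3 of both treatments (2.34 and 3.60 in CTRL, 4.16 and 1.85 in VPA). GRIN3B, a glycine-binding subunit, had a promoter peak only in VPA 2 (3.92). No NMDA promoter was called in replicate 1 of either treatment.

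Of the delta receptor genes, whose products organise synapses rather than act mainly as channels, GRID1 had the second promoter acetylated in all 6 libraries (chr10:86365589-86367560, summit 0.18 kb downstream of the start, in the untranslated region). Its folds were 7.69, 18.7 and 17.3 in CTRL and 5.89, 14.7 and 15.3 in VPA, lower in VPA within each replicate number. Among the metabotropic genes, all of which encode receptors coupled to G proteins, GRM3 had a promoter peak in all but CTRL 1 (3.62 and 7.51 in CTRL, 8.50, 7.51 and 6.38 in VPA). GRM4 (3.35 and 4.19, then 4.13 and 4.22) and GRM8 (4.20 and 4.19, then 3.23 and 3.81) had one in replicates 2 and 3 of both treatments.

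Of the GABA receptor genes, GABRD, the delta subunit of receptors outside the synapse, had a promoter peak in CTRL 2 (7.84), VPA 2 (5.81) and VPA 3 (6.10). GABRR1, a rho subunit, had one in VPA 2 (3.61) and VPA 3 (4.42), and GABBR2, the GABA-B subunit that couples to the G protein, in CTRL 3 (3.12) and VPA 2 (2.89). None of the 3 was called in replicate 1. No receptor gene lost a promoter peak from all libraries of 1 treatment while keeping it in all of the other.

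Merged over the 6 libraries, the H3K27ac peaks of the receptor genes formed 80 regions, of which 13 lay at the promoter, 53 inside the gene (6 of them at another transcript start of the gene) and 14 in the flanks. The summit was in an intron in 47 and in a coding exon in 6. Of the 80, 7 lay at the start of another protein-coding gene. These include regions in all 6 libraries at ZNF574 (6.21 kb upstream of GRIK5), KDELR1 and GRWD1 (on either side of GRIN2D) and TMEM259 (downstream of GRIN3B), so part of the counts of GRIK5, GRIN2D and GRIN3B belongs to neighbours. A peak in all 6 libraries was found in 21 regions (26.3%, against 33.2% of all H3K27ac regions). The receptor regions ranked slightly lower in their lists, with a median percentile of 65.9 against 72.0 for all regions found in 6 of 6 libraries.

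Only in VPA, that is in 3 of 3 VPA and 0 of 3 CTRL libraries, a peak was found in 2 of the 80 regions (2.5%, against 4.12% of all regions). Only in CTRL it was found in 0 (against 0.139%). The first region lay in a GRIK5 intron (chr19:42028294-42029236, summit 41.6 kb into the gene), with folds of 11.2, 4.31 and 4.87 in VPA. The second lay in a GRIN2D intron (chr19:48403313-48404862, 10.5 kb into the gene), with folds of 2.65, 4.95 and 2.84. Without VPA replicate 1, 8 regions were found only in VPA, against 11.2% of all regions. Replicate 1 was the highest of the VPA libraries in the GRIK5 region and the lowest in the GRIN2D region. In all, 44 of the 80 regions (55.0%, against 51.4% of all regions) had a peak in more VPA than CTRL libraries and 3 (3.75%, against 7.64%) in fewer.

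**Figure D3:**
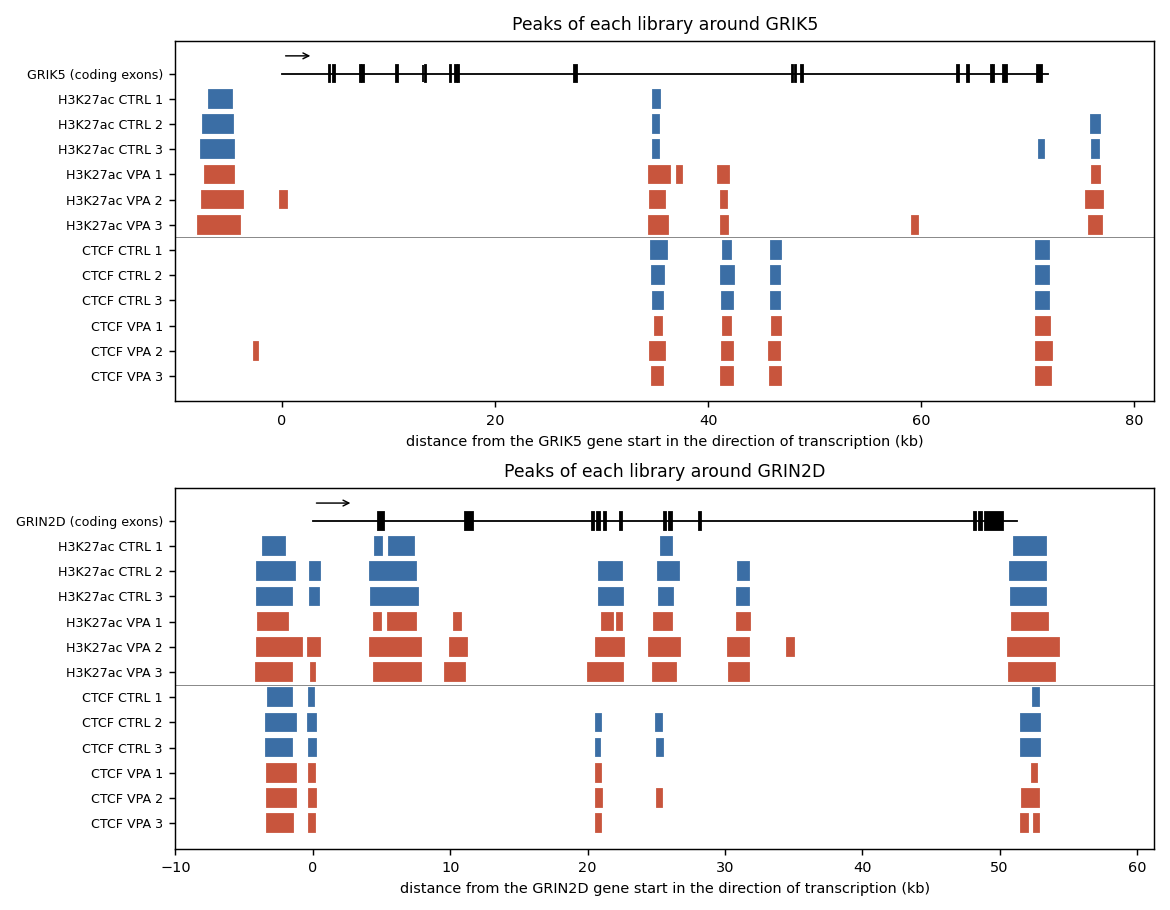
Peaks of each library (bars, blue CTRL and red VPA, H3K27ac above the line and CTCF below it) around GRIK5 (top) and GRIN2D (bottom), by distance from the gene start in the direction of transcription (kb), with coding exons as black boxes. In GRIK5 the VPA libraries have an H3K27ac peak at 41.6 kb that no CTRL library has, over a CTCF peak found in all 6 libraries. In GRIN2D the H3K27ac peak found only in VPA lies at 10.5 kb, where no CTCF peak was called.

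The third question was whether the level of H3K27ac changed where it was present throughout. For the 21 regions present in all 6 libraries, the log2 fold enrichment, centred on the median of each library, was compared with limma over all 18407 such regions. With no term for the replicate number, limma called 0 regions higher and 0 lower, among the receptor genes and genome-wide (0%), at an adjusted p under 0.05. At an unadjusted p under 0.05, 2 receptor regions were higher and 0 lower, and genome-wide 383 were higher and 1091 lower. Of the 21, 13 were above 0 and 8 below, with a median log2 difference of 0.18 against -0.05 over all regions.

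H3K27ac libraries with the same replicate number deviated together, and replicate 1 was the lowest of 3 in both treatments in 17 of the 21 regions. Replicates 2 and 3 deviated together across numbers as well (correlations of 0.6065 for CTRL 2 with VPA 3 and 0.5537 for CTRL 3 with VPA 2). The numbers thus set replicate 1 apart and do not pair replicates 2 and 3. With the replicate number as a block, limma called 4 receptor regions higher and 0 lower, beside 6.45% higher and 8.57% lower genome-wide. The 3 at GABRR3, GRIN1 and GRIK5 are given in turn.

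The region 4.3 kb upstream of GABRR3 (chr3:98039275-98039947) had folds of 6.27, 9.25 and 9.57 in CTRL and 9.41, 16.8 and 15.7 in VPA. Its log2 difference was 0.80 (SE 0.212, limma adjusted p = 0.0187 with the block, 0.611 without). VPA 1 fell within the range of CTRL, and replicates 2 and 3 of VPA were above all of CTRL. The GABRR3 promoter printed above had no peak, so this was acetylation next to a gene whose own start was not acetylated.

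The region 11.7 kb into GRIN1 (chr9:137149013-137152449) had folds of 5.67, 11.1 and 13.7 in CTRL and 8.86, 17.5 and 19.5 in VPA. The groups overlapped through replicate 1, and VPA was higher within each replicate number. The log2 difference was 0.69 (SE 0.205, limma adjusted p = 0.0316 with the block, 0.611 without).

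The region 35.1 kb into GRIK5 (chr19:42033831-42035781) had folds of 11.2, 5.15 and 3.97 in CTRL and 17.0, 7.52 and 7.57 in VPA. It was the one of the 21 regions in which replicate 1 was the highest in both treatments. Its log2 difference was 0.78 (SE 0.226, limma adjusted p = 0.0285 with the block, 0.823 without). The GRIK5 region found only in VPA lies further into the same gene.

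**Figure D4:**
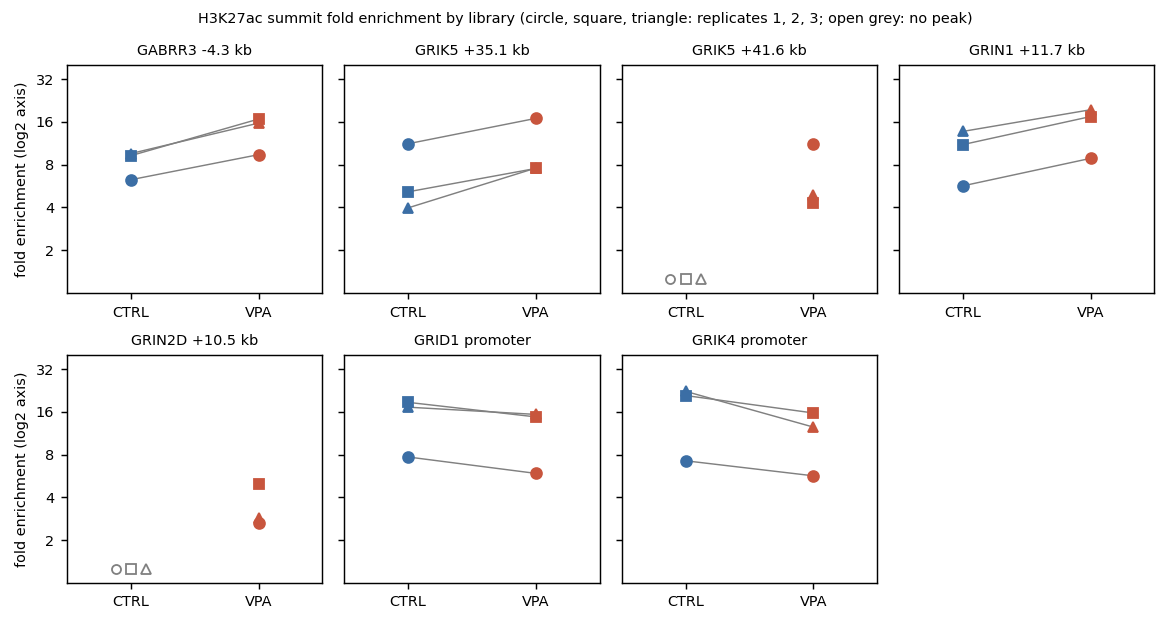
Summit fold enrichment of H3K27ac (log2 axis) by library in 7 receptor-gene regions, with CTRL in blue, VPA in red, replicates 1, 2 and 3 as circle, square and triangle, and lines joining the same replicate number. Open grey symbols mark libraries without a peak and carry no value. The GABRR3, GRIN1 and 35.1 kb GRIK5 regions are higher in VPA within each replicate number, and the GRID1 and GRIK4 promoters are lower within each.

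The 2 promoters acetylated throughout at the annotated gene start had negative differences that did not pass the test. The GRID1 promoter had a log2 difference of -0.21 (SE 0.257, limma adjusted p = 0.857) and the GRIK4 promoter of -0.45 (SE 0.279, limma adjusted p = 0.713), and neither was called with the block. Regions present throughout near the RefSeq starts of GABBR1 (at 5.4 kb) and GRIK2 (at 431.2 kb) had differences of 0.30 and 0.05. Neither was called by the fold. The lowest value was at the ZNF574 start upstream of GRIK5 (-0.50). Folds depend on the local background as well as on the signal. With the number of fragments over the summit, recovered from the fold and the p-value, in place of the fold, limma called 6 receptor regions higher (11.1% genome-wide) and 1 lower (25.2% genome-wide). With the replicate block as well, a choice made after seeing the data, it called 10 higher (22.8% genome-wide) and 6 lower (33.4% genome-wide), the GRID1 and GRIK4 promoters among the 6.

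The 6 regions that limma called higher by the fragment number without the block were in GRIK5 at 35.1 kb (log2 difference 1.02, adjusted p = 0.00937), GRIK2 at 431.2 kb (0.62, 0.0263), GRIN2C at 8.56 kb (0.54, 0.0443), GABBR1 at 5.38 kb (0.52, 0.0207), GRIA4 at 351.3 kb (0.44, 0.0171) and GRIN2D at 5.81 kb (0.38, 0.0457). GRIK2 and GRIA4 encode a kainate and an AMPA subunit, GRIN2C an NMDA subunit of the cerebellum, and GABBR1 the GABA-B subunit that binds GABA. The region that was lower lay 8.82 kb upstream of GRIN1 (-0.43, 0.00926), with folds of 13.7, 45.8 and 37.4 in CTRL and 11.5, 26.7 and 28.9 in VPA. GRIK5 at 35.1 kb was the one region called both by the fold with the block and by the fragment number without it. Its log2 difference by fold depended on single libraries. With 1 library left out and no block, it ran from 0.04 (without VPA replicate 1) to 1.52 (without CTRL replicate 1).

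**Figure D5:**
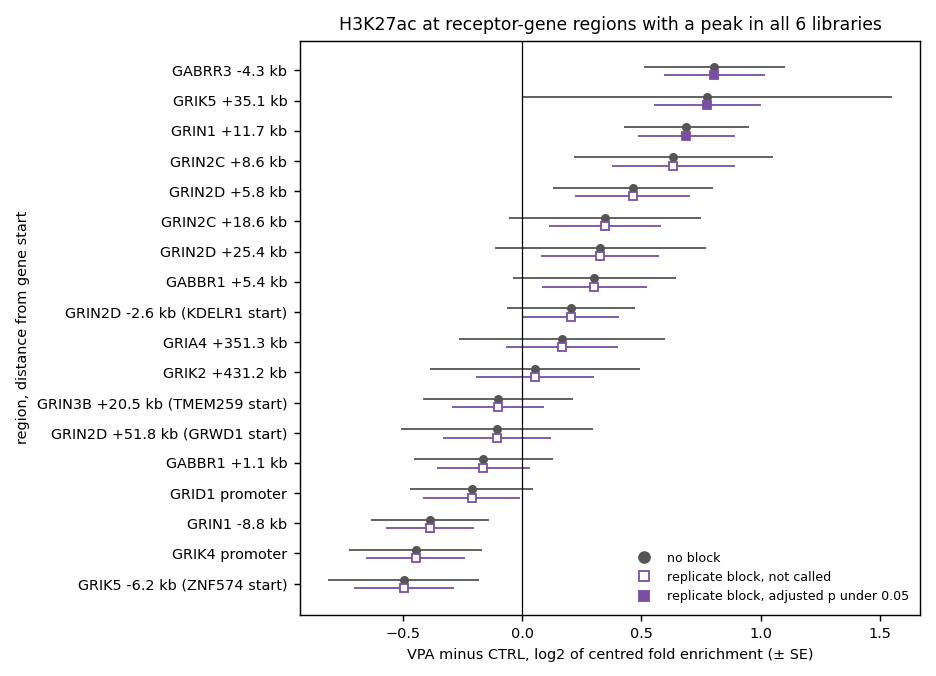
Log2 difference of the centred H3K27ac fold enrichment between VPA and CTRL (points, with bars of 1 SE) in 18 receptor-gene regions present in all 6 libraries, without the replicate block (grey) and with it (squares, filled where limma gave an adjusted p under 0.05). Differences run from -0.50 to 0.80, and the 3 filled regions are those of GABRR3, GRIK5 and GRIN1.

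CTCF showed a different picture. Of the 43 genes, 39 had a CTCF peak in the window (90.7%, against 88.6% of all genes), 37 inside the gene (86.0%, against 60.3%) and 18 at the promoter (41.9%, against 38.2%). The greater length of the receptor genes goes along with the intragenic share, and its part in it was not tested. The windows had 156, 207 and 211 CTCF peaks without treatment and 131, 208 and 211 after VPA (191 ± 30.7 and 183 ± 45.3), so the treatments differed by less than the spread between replicates. The most peaks were found at GRID1 (24, 21 and 21 in CTRL, 11, 24 and 24 in VPA), GRIK4 (18, 18 and 20, then 12, 21 and 17), GRM4 (12, 13 and 12, then 13, 12 and 13), GRM8 (6, 12 and 10, then 7, 10 and 15) and GRIN2B (7, 10 and 11, then 6, 11 and 11). At GRID1 and GRIK4 the VPA 1 library had fewer peaks than any other.

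No receptor gene had CTCF peak numbers that did not overlap between treatments. Over all genes with a CTCF peak in the window, 0.396% were higher in VPA in this way and 0.874% lower, 0.26% and 0.192% at the promoter, and 0.33% and 0.868% inside the gene. The peaks formed 253 regions, of which 211 were intragenic, 16 at promoters and 26 in the flanks. GABRB2 and GABRA6 share 1 of them. All 6 libraries had a peak in 107 regions (42.3%, against 39.7% of all CTCF regions). Regions found only in VPA numbered 0 (against 0.186%) and those only in CTRL 0 (against 0.326%).

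CTCF was at the promoter in all 6 libraries in 10 receptor genes (23.3%, against 21.4%), namely GRM4, GRIK4, GRIN2C, GRIA2, GRIN2B, GRIN3A, GRM7, GRID1, GABBR2 and GRIN2D. Of these, 5 had promoter H3K27ac in at least 1 library and 5 did not. The GRM4 region was among the highest in the lists (mean percentile 99.6), with folds of 60.2, 145 and 136 in CTRL and 109, 193 and 131 in VPA. GRIK4 had 56.5, 137 and 82.5 in CTRL and 133, 101 and 76.9 in VPA, and GRIN2D, at the other end, 2.62, 4.45 and 6.94 in CTRL and 3.89, 6.84 and 5.10 in VPA. In all 3 the treatments overlapped.

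GRIN2B and GRIN3A had CTCF but no H3K27ac at their promoters. GRIN2B, the glutamate-binding NMDA subunit of the developing brain, had folds of 20.6, 26.2 and 23.8 in CTRL and 24.2, 38.3 and 25.9 in VPA. GRIN3A, a glycine-binding subunit, had 10.6, 18.4 and 21.4 in CTRL and 20.6, 30.3 and 22.4 in VPA, over the site printed above. Both sets of libraries overlapped between treatments. In the fit with limma over 27794 regions present in all 6 libraries, 0 of the 107 receptor regions were called higher and 0 lower, as were 0% genome-wide. At an unadjusted p under 0.05 there were 0 and 0 among the receptor regions and 39 and 90 genome-wide. The differences ranged from -1.17 to 0.70 on the log2 scale, with a median of 0.07 against 0.10 over all regions. The replicate block and the recovered fragment numbers called 0 regions as well.

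Where the 2 marks met, the H3K27ac regions of the receptor genes lay over a CTCF region found in all 6 libraries in 30 of 80 cases (37.5%, against 21.7% of all H3K27ac regions), and in 10 of the 21 present in all libraries (47.6%, against 31.4%). Of the regions found only in VPA or called with the block, the GRIK5 regions at 35.1 kb and 41.6 kb and the GABRR3 region lay over such a CTCF region. Those of GRIN1 at 11.7 kb and GRIN2D at 10.5 kb did not. The CTCF sites of the GRIK5 and GABRR3 regions are the ones printed at the start.

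At these 3 sites CTCF itself was not called as changed. The CTCF region under the GRIK5 peak at 41.6 kb (chr19:42027825-42028995) had folds of 309, 93.0 and 98.4 in CTRL and 45.0, 105 and 103 in VPA, a log2 difference of -0.73 (SE 0.851, limma adjusted p = 1.00). Its replicates 2 and 3 were nearly level between treatments, and replicate 1 alone carried the difference. The region under the GRIK5 peak at 35.1 kb had 32.7, 86.4 and 70.5 in CTRL and 29.6, 85.7 and 74.1 in VPA. At GABRR3 the folds were 11.6, 103 and 127 in CTRL and 20.7, 18.4 and 127 in VPA.

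Seen from CTCF, the share of receptor-gene CTCF peaks that overlapped an H3K27ac region of the same treatment was 12.3%, 10.3% and 10.1% in CTRL and 20.3%, 14.1% and 12.5% in VPA (10.9 ± 1.23 and 15.7 ± 4.12, SD, n = 3). The groups did not overlap, with a difference of 4.73 percentage points. Over all CTCF peaks the shares were 21.6%, 19.1% and 18.7% in CTRL and 32.8%, 26.6% and 24.1% in VPA, a difference of 8.02 points. When the H3K27ac regions of CTRL were used for both treatments, the differences were 0.967 and 1.03 points. The difference turned to -2.72 points without VPA replicate 2 and -2.19 without VPA replicate 3. Of the 107 CTCF regions present throughout, 17 overlapped H3K27ac in both treatments, 6 only in VPA and 84 in neither. The 6 were at GRIN2C (1.56 kb into the gene and 3.51 kb upstream), GRIK5 (41.8 kb), GRIK4 (173.4 kb), GRM4 (100.2 kb) and GABBR1 (80.3 kb), so they lay at glutamate receptor genes with 1 exception.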

How the data were processed

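ChIP-seq for H3K27ac and CTCF was performed in CTRL and VPA-treated HEK293T cells, with groups and replicate numbers taken from the sample labels. Of 18 samples, 12 were analysed, and 6 input libraries were not analysed here. According to the study's methods and the submitters' processing notes, the authors aligned paired-end reads to hg38 with Bowtie2 and called peaks in each library separately with MACS3 (3.0.0a7 in the notes) with a q-value limit of 0.05, leaving replicates unpooled. DiffBind is also named there, and its results were not used. Whether the input served as the control and how duplicates were treated were not given in the sources used here. The deposited lists give for each peak a score, the fold enrichment (a ratio over local background), the −log10 p-value and the −log10 q-value, all as computed by the authors' peak caller. The deposited score was not used as a measure.

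Peaks were assigned to GENCODE release 44 genes, and peaks of the 6 libraries of an antibody sharing at least 1 bp were merged into regions. A region's percentile is its rank by −log10 q-value in each list, averaged over the libraries with a peak. Peaks per gene were compared by a two-sided exact permutation test, adjusted (Benjamini-Hochberg) over all autosomal protein-coding genes, with or without a peak. Fold enrichment at regions present in all 6 libraries was tested on the log2 scale with limma 3.58.1 in R 4.3.3 (eBayes with trend, Benjamini-Hochberg over all regions, called at an adjusted p under 0.05), after centring each library on its median. Without centring, the median difference of all H3K27ac regions moved from -0.05 to -0.14. The fit without a replicate block was the planned one. The H3K27ac numbers were then checked for pairing. Deviations from the group means of libraries with the same number correlated at 0.865, 0.585 and 0.591, all over 0.1, so the block was also given in the report. Replicates 2 and 3 correlated about as much across numbers (0.6065 for CTRL 2 with VPA 3, 0.5537 for CTRL 3 with VPA 2). The numbers therefore set apart replicate 1 only. The block comes from the data and not from the labels. Intervals were handled in Python 3.11.15 (numpy 2.4.6, pandas 2.3.3, scipy 1.17.1) and plots drawn with matplotlib 3.10.9. The fit was tested on simulated data before use.

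Named genes were receptor genes with a promoter H3K27ac peak, with peak numbers that do not overlap between treatments, with a region in only 1 treatment or called by limma, the 5 with the most peaks of each antibody, and those with no peak. Some receptor genes enter the counts but are not reported here by name. The genes and lists were chosen with earlier results of these data known. Depth per library is unknown, as lists hold no read totals. The lowest local background recovered from fold and p-value, over the weaker called peaks, was 3.51 to 3.95 fragments. It is a floor over called peaks, so its narrow range does not show that depth was equal. Separate cultures are not stated for the replicates, so p-values may measure technical spread only. Alternatives covered stricter q-values, lists cut to the shortest, other promoter and window sizes, the replicate block, recovered fragment numbers and left-out libraries. Added after seeing the data were the block with fragment numbers, replicate 1 of both treatments left out, and merged regions counted in place of peaks.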

Additional observations from a re-analysis of the deposited data

How the results depend on the processing

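The number of receptor genes with more H3K27ac peaks in VPA in the window (2) became 0 with a −log10 q-value of at least 3, 0 with lists cut to the shortest, 5 with 50 kb on either side, 3 within each replicate number (GRIK4 added) and, among alternatives added after seeing the data, 1 with merged regions and 8 without replicate 1 of both treatments. Leaving out 1 library at a time gave 2 to 8, with 8 without VPA replicate 1. For 50 kb, the stricter q-value, the shortest lists and the other left-out libraries, no share over all genes was made. Their counts thus cannot be set against a background. The same holds for these alternatives inside genes, at promoters and for regions in only 1 treatment. Inside genes the number (1) became 0 with lists cut to the shortest, 3 within each replicate number (replicate block), 4 without replicate 1 of both treatments and 1 to 4 with 1 library left out (4 without VPA replicate 1, 3 without CTRL replicate 3, 2 without VPA replicate 2). At promoters (0) it became 2 without replicate 1 of both treatments and 0 to 2 with 1 library left out (2 without VPA replicate 1). Regions only in VPA (2) became 1 with the shortest lists and 2 to 8 with 1 library left out (8 without VPA replicate 1), and those only in CTRL (0) became 0 to 1 (1 without CTRL replicate 1). By limma, 0 regions were higher and 0 lower, against 4 and 0 with the replicate block, 6 and 1 with recovered fragment numbers, and 10 and 6 with both (added after seeing the data, against 22.8% and 33.4% of all regions tested), the 6 including the GRID1 and GRIK4 promoters. The sign of the GRIK2 region at 431.2 kb turned without centring (-0.0327), without CTRL replicate 1 (-0.06) and without VPA replicate 3 (-0.13), its range with 1 library left out ending at 0.17, and that of the GRIA4 region at 351.3 kb without CTRL replicate 2 (-0.21) and without VPA replicate 1 (-0.19), its range ending at 0.39.

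For CTCF, replicate numbers did not pair the libraries (correlations 0.340, -0.0451 and 0.477). The genes with more peaks in VPA (0) became 2 in the window and 2 inside the gene without replicate 1 of both treatments, and 0 to 1 in each with 1 library left out (1 without CTRL replicate 3 or VPA replicate 1). Those with fewer (0) became 4 with the replicate block (GRM7, GABBR2 and GRM5 among them, named after their values were seen), 4 without replicate 1 of both treatments and 0 to 4 with 1 library left out (4 without CTRL replicate 1). Regions only in VPA (0) became 0 to 2 (2 without VPA replicate 1) and only in CTRL 0 to 3 (3 without VPA replicate 2) with 1 library left out. No share over all genes or regions was made for these CTCF alternatives, so their counts cannot be set against a background. The difference in the share of CTCF peaks that overlap H3K27ac (4.73 points) was 0.130 with the shortest lists and lay between -2.72 and 9.18 with 1 library left out. It rose without CTRL replicate 2 (9.18) or 3 (9.14) and turned without VPA replicate 2 (-2.72) or VPA replicate 3 (-2.19), where by construction both remaining H3K27ac libraries must hold the peak. Other causes were not tested. Depth per library is unknown, and a gene without a peak is one without a called peak in these lists.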
